A study of Mus musculus with 6 samples.

Results

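The genes examined here encode the subunits of the Polycomb repressive complexes PRC1 and PRC2 and the enzymes that remove methyl groups from lysine 27 of histone H3 (H3K27), 33 genes of the 55385 counted. They were chosen by name and by role, with earlier results of these data known. They comprise 6 PRC2 core subunits, 5 PRC2 accessory subunits, 2 RING ligases of PRC1, 10 subunits of canonical PRC1, 8 subunits of variant PRC1 and 2 H3K27 demethylases. The study asked what the loss of one anchor of a long-range Polycomb-associated DNA loop, the region around *Wnt6*, does to gene expression in mouse embryonic stem cells (mESCs). Polyadenylated RNA was sequenced from wild-type (WT) mESCs, from mESCs with the *Wnt6* anchor deleted on 1 allele (heterozygous, Het) and from mESCs with it deleted on both alleles (homozygous, Homo), in 2 libraries each. All came from the hybrid line G4 and were maintained with LIF on a layer of CD1 feeder cells, so RNA of feeder cells can be part of every library. The deletions were made with CRISPR-Cas9 and a pair of guide RNAs, and individual clones were screened. The sources used here do not say which clone each library came from, so differences between clones and effects of the deletion cannot be told apart. Nor do the labels say that the libraries of a genotype came from separate cultures, and p-values then measure only the spread between these libraries, which may be technical.

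Polycomb repressive complexes keep developmental genes silent. PRC2 methylates H3K27 through EZH1 or EZH2, and its product H3K27me3 is bound both by PRC2 itself, through EED, and by the CBX proteins of canonical PRC1. PRC1 is built around RING1 or RNF2 (RING1B) together with a PCGF protein and attaches ubiquitin to lysine 119 of histone H2A. Canonical PRC1 adds CBX and PHC proteins, which take part in chromatin compaction and looping, whereas variant PRC1 carries RYBP or YAF2 and, in a subset, KDM2B, a protein that binds unmethylated CG dinucleotides. The demethylases KDM6A (UTX) and KDM6B (JMJD3) act in the opposite direction. In mESCs these complexes hold many lineage regulators in a silent but inducible state.

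CG-rich DNA is where the mammalian complexes gather, and many of their own genes start in such DNA. RefSeq windows of 250 bases upstream of a start, in GRCm38.p6, were at hand for 27 of the 33 genes within 5000 bases of the annotated 5′ end. The 27 windows held a median of 21 CG dinucleotides, against a median of 9 over the windows of 19044 genes. CG reads the same on both strands. At least 10 CG were found in 24 of the 27 windows (88.9%) and in 48.1% of the windows of all genes. Median GC content was 66.4% in the former and 54.8% in the latter. The windows of all genes were not limited to genes with counts in these libraries, which all 33 had. Windows of expressed genes alone were not compared. Windows are given for the 4 genes whose levels differed most between the deletions, *Kdm2b*, *Pcgf5*, *Phc2* and *Jarid2*, each 5′ to 3′ on the strand of the gene, with CG in capitals and outside annotated exons. The *Kdm2b* window (chr5:122900368-122900617, minus strand, 36 CG) precedes an internal start that lies 89456 bases from the 5′ end of the gene. That of *Pcgf5* (chr19:36409498-36409747, plus strand, 28 CG) also precedes an internal start, 61439 bases from the 5′ end. Among the 27 windows summarized above, *Kdm2b* and *Pcgf5* entered with other windows. Their starts lie 724 and 20 bases from the 5′ end, with 27 and 23 CG. The *Phc2* window (chr4:128654452-128654701, plus strand, 13 CG) ends at the annotated 5′ end, and the *Jarid2* window (chr13:44730524-44730773, plus strand, 23 CG) precedes a start 1300 bases inside it. Further windows of these genes outside annotated exons are not printed. They held 4 CG for *Pcgf5* (start 30758 bases from the 5′ end), 1 and 34 CG for *Phc2* and 22 CG for *Jarid2*. Counts per gene do not show which start was used.
*Kdm2b*: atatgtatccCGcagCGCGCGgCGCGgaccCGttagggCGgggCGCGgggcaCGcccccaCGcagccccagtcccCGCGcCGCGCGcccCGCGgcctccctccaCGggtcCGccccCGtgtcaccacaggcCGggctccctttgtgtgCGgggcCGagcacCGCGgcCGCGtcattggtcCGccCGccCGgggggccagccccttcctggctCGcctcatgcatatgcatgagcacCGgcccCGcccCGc
*Pcgf5*: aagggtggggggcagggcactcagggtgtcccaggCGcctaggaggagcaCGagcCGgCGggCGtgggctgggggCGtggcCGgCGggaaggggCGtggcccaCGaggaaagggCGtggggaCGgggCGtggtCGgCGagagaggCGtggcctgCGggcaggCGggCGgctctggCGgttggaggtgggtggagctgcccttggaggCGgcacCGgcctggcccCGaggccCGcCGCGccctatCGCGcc
*Phc2*: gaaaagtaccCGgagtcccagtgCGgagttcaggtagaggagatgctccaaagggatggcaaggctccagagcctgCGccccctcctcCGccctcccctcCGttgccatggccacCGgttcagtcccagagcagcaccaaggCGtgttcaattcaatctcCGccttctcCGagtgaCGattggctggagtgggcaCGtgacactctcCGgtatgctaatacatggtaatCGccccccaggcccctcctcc
*Jarid2*: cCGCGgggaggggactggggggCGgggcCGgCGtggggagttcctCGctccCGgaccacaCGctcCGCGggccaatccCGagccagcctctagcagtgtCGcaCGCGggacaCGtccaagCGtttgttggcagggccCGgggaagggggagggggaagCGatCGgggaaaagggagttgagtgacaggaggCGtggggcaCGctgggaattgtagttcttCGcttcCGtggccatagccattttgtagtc

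The libraries held 23813912 to 28964706 counts, with a common biological coefficient of variation of 3.52%. The genotype labels were checked on *Wnt6*, with 11 and 13 counts for WT, 6 and 4 for Het and 0 and 0 for Homo. All 33 genes passed the filter of at least 10 counts in at least 2 libraries, as did 16951 genes in all, and the lowest count of any of the 33 in any library was 34 (*Cbx8*). Levels are given as CPM, counts scaled to library size with TMM factors for composition, and between genes as RPKM, the same divided by the length of the annotated exons in kilobases. Pluripotency markers, 10 genes, summed to between 2968 and 3462 CPM. Feeder fibroblast markers were present in every library, with none of the 24 at 0. Their summed level was 5416 to 5486 CPM in wild-type, 4201 to 4218 in heterozygous and 3038 to 3068 in homozygous libraries.

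In wild-type cells the 33 genes spanned a wide range of per-length level, from 148 ± 2.06 RPKM (SD, n = 2) for *Rbbp7* down to 0.4501 ± 0.0185 for *Cbx8*. Among tested genes with an annotated length, these stood above 98.5% and 17.9% of wild-type levels. In the PRC2 core, the histone-binding subunit *Rbbp7* was followed by its paralog *Rbbp4* at 70.6 ± 2.11 RPKM, by the H3K27me3 reader *Eed* at 45.4 ± 0.0206, by the scaffold *Suz12* at 42.7 ± 0.3104 and by the methyltransferase *Ezh2* at 27.7 ± 0.984. The second methyltransferase, *Ezh1*, was at 3.26 ± 0.209 RPKM. These are wild-type means and SDs of 2 libraries on the RPKM scale, as are those that follow.
Of the PRC2 accessory genes, *Jarid2* was at 56.1 ± 0.3003 RPKM and *Mtf2*, a Polycomb-like protein that binds CG-rich DNA, at 42.5 ± 0.4396. *Aebp2*, which joins PRC2 together with JARID2, stood at 12.5 ± 0.01404, and the other Polycomb-like genes, *Phf19* and *Phf1*, at 2.96 ± 0.267 and 2.05 ± 0.2704. The levels of *Suz12* and *Mtf2*, neighbours in this order, differed by less than their spread.
The ligase *Rnf2* was at 31.005 ± 1.05 RPKM and its paralog *Ring1* at 3.41 ± 0.211. In canonical PRC1 the SAM-domain protein *Phc1* stood highest at 118 ± 3.13 RPKM and the chromodomain protein *Cbx7* came next at 47.6 ± 1.86, ahead of *Pcgf2* at 25.8 ± 1.03. *Cbx6* and *Cbx2*, at 10.2 ± 0.343 and 9.98 ± 0.0198, lay within their spread of each other. *Phc2* was at 6.26 ± 0.0294 RPKM, *Scmh1* at 3.05 ± 0.104, *Bmi1* (also called *Pcgf4*) at 2.403 ± 0.115 and *Phc3* at 1.301 ± 0.132.
In variant PRC1, *L3mbtl2* and *Pcgf6*, which share a complex, were at 29.4 ± 0.313 and 21.9 ± 0.587 RPKM. *Rybp* was at 16.5 ± 0.129 and *Yaf2* at 6.601 ± 0.227. *Pcgf3* stood at 10.2 ± 0.195 RPKM and its closest paralog *Pcgf5* at 1.37 ± 0.00115, while *Kdm2b* and its partner *Pcgf1* were at 8.06 ± 0.321 and 5.33 ± 0.622. The demethylases *Kdm6a* and *Kdm6b* were at 10.6 ± 0.149 and 8.96 ± 0.261 RPKM.

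**Figure D1:**
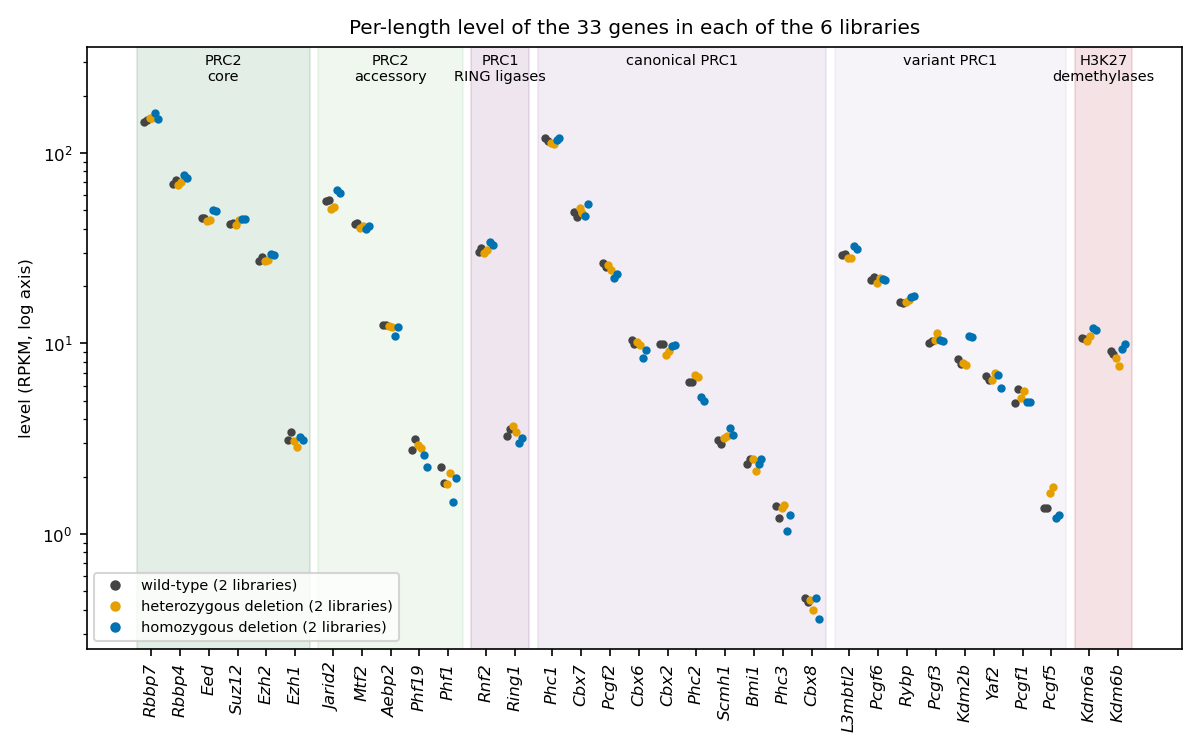
Per-length level of the 33 genes (RPKM, log axis) in each of the 6 libraries, grouped by role and ordered by level within a role, with 1 point per library coloured by genotype. Wild-type means run from 148 RPKM for *Rbbp7* to 0.450 for *Cbx8*, and for most genes the 6 points lie close together.

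Within families of paralogs the gene with the largest share of the summed RPKM was the same in all 6 libraries. *Ezh2* supplied 89.3 to 90.5% of the EZH level over the 6 libraries, *Rbbp7* 67.04 to 69.2% of the RBBP level, and *Mtf2* 89.4 to 90.8% of the level of the 3 Polycomb-like genes. *Rnf2* supplied 89.03 to 91.9% of the RING level, *Phc1* 93.2 to 95.1% of the PHC level and *Rybp* 70.7 to 75.3% of the RYBP level. *Cbx7* supplied 69.4 to 73.7% of the summed level of the 4 CBX genes among the 33. *Kdm6a* supplied 50.8 to 58.7% of the KDM6 level.
The 6 PCGF genes, each of which defines a different PRC1, were more evenly divided. *Pcgf2* held 35.1 to 39.8% and *Pcgf6* 31.2 to 34.8%, followed by *Pcgf3* with 15.1 to 16.9%, *Pcgf1* with 7.34 to 8.57%, *Bmi1* with 3.17 to 3.91% and *Pcgf5* with 1.93 to 2.62%. The canonical pair *Pcgf2* and *Bmi1* thus differed widely, and most canonical PCGF RNA came from *Pcgf2*. Shares in RPKM depend on the length used, which takes all annotated exons of a gene. *Pcgf3*, with 9544 bases, had a wild-type mean of 97.1 CPM, and *Pcgf2*, with 3526 bases, one of 91.1 CPM.
A few smaller shares differed between genotypes without overlap of the libraries. That of *Cbx6* was 14.9 ± 0.02199% in wild-type, 14.5 ± 0.144% in heterozygous and 12.7 ± 0.272% in homozygous libraries (SD, n = 2 each). That of *Phc2* was 4.999 ± 0.108%, 5.63 ± 0.0455% and 4.08 ± 0.206% in the same order, highest in the heterozygous and lowest in the homozygous libraries. *Pcgf5* held 2.04 ± 0.0166%, 2.55 ± 0.107% and 1.96 ± 0.0336%. These shares are descriptions and were not tested.

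**Figure D2:**
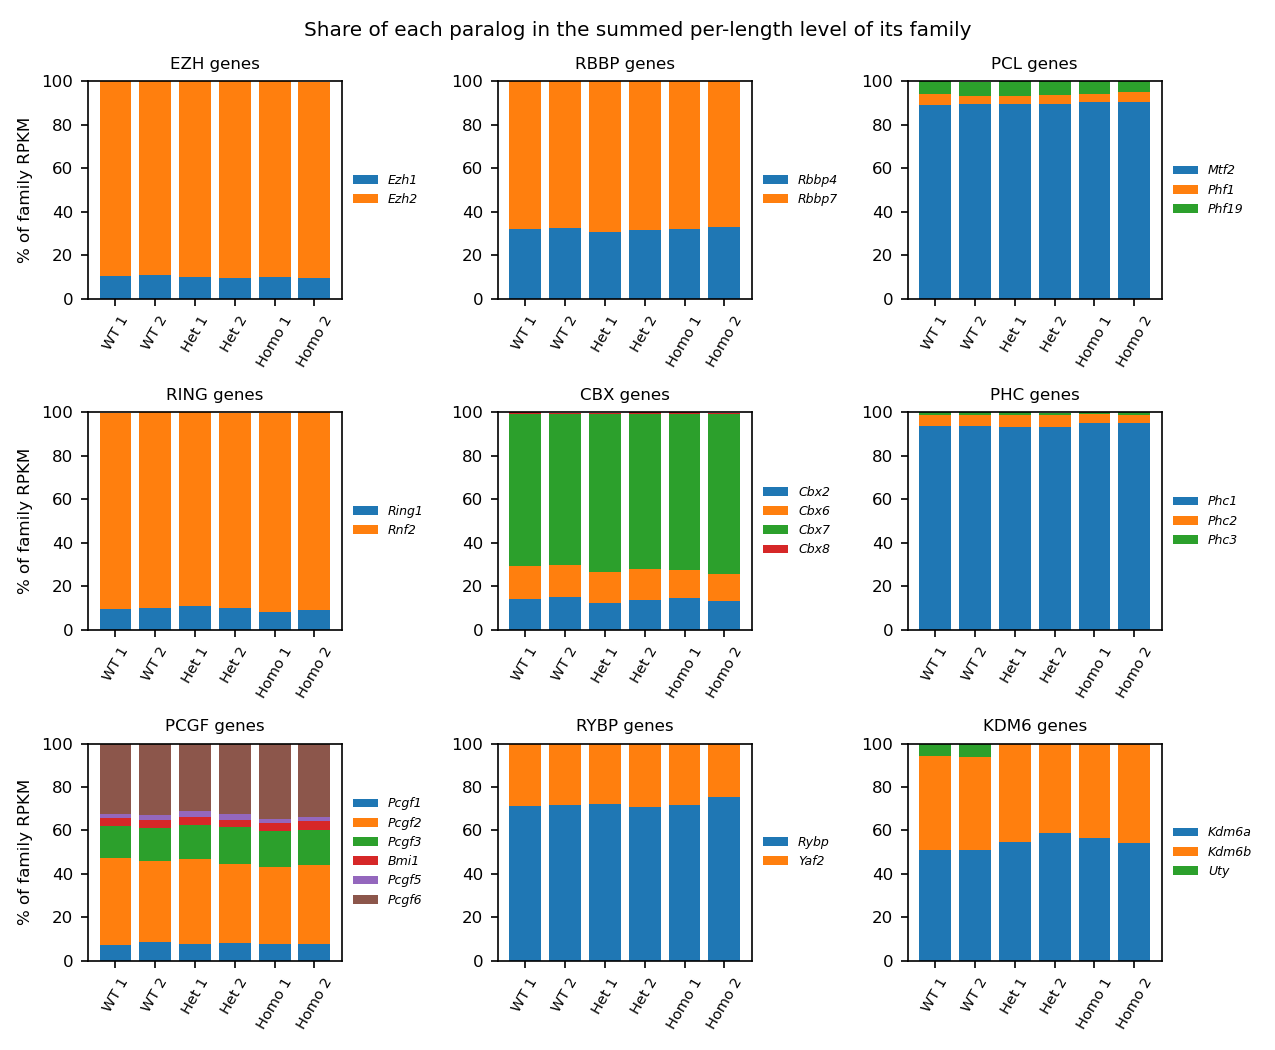
Share of each paralog in the summed per-length level (% of RPKM) of its family in each of the 6 libraries, as stacked bars from 0 to 100% for 9 families. The leading gene is the same in every library of every family, while *Uty* in the KDM6 family drops from 5.99% in wild-type to 0.372% in heterozygous and 0.145% in homozygous libraries.

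Against wild-type, few of the 33 genes were called in heterozygous cells and more in homozygous cells. A gene was called at a Benjamini-Hochberg adjusted p below 0.05 in edgeR's quasi-likelihood test, with adjustment over all 16951 genes. In Het versus WT, 1 of the 33 genes rose (*Pcgf5*) and none fell, which is 3.03% against 5.14% of all genes tested (2.23% higher and 2.91% lower). At an unadjusted p below 0.05 were 4 of the 33, and 2757 of all 16951 genes. In Homo versus WT, 5 rose (*Eed*, *Jarid2*, *Kdm2b*, *Kdm6a* and *L3mbtl2*) and 4 fell (*Cbx6*, *Pcgf2*, *Phc2* and *Phf19*), or 27.3% against 21.4% of all genes (10.9% higher and 10.5% lower). Tested directly between the deletions, Homo versus Het, 8 were higher and 5 lower in homozygous cells, or 39.4% against 25.8% (12.9% in either direction). With total counts alone in place of TMM scaling, the split in Homo versus WT was 2 higher and 5 lower, and that in Homo versus Het was 4 higher and 7 lower.
In all, 14 of the genes were called in some comparison and 19 in none. The highest absolute log2 fold change of any of them was 0.47, so none passed the study's fold threshold (an absolute log2 fold change above 1), which 0.165%, 2.14% and 1.39% of all genes passed in the 3 comparisons. The median log2 fold change of the 33 was -0.03, 0.01 and 0.04 in Het versus WT, Homo versus WT and Homo versus Het, beside 0.00, -0.01 and -0.02 over all genes. Their median absolute log2 fold change was 0.05, 0.12 and 0.13, against 0.10, 0.15 and 0.17 over all genes. Their median SE was 0.050, 0.051 and 0.051, against 0.092, 0.093 and 0.094, so sizes and shares called are set against less precisely measured genes. Among genes with at least 1 CPM in 2 libraries, 25.2% were called in Homo versus WT and 30.3% in Homo versus Het. Of the 33, 9 and 13 were called there.
The libraries of the groups did not overlap for 14, 23 and 24 of the 33 genes in the 3 comparisons, while 47.7%, 57.9% and 61.4% of all genes did not overlap. The comparisons share libraries, each genotype entering 2 of them, so their values are given side by side and are not independent.
Feeder fibroblast markers moved with genotype. Of 24 markers 23 were tested, and 17 fell in Het versus WT and 22 in Homo versus WT, with median log2 fold changes of -0.48 and -1.09 and none higher. In Homo versus Het 20 fell, with a median of -0.60. The part of the feeder RNA in the differences of the 33 genes was not tested, and in these bulk libraries fewer cells of a type cannot be told apart from less RNA per cell. None of the 33 genes lies on chromosome 8, where the median over 890 tested genes was -0.12, 0.39 and 0.51 on the log2 scale in Het versus WT, Homo versus WT and Homo versus Het, and *Rnf2*, on chromosome 1, lies 76.7 Mb from *Wnt6*.

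**Figure D3:**
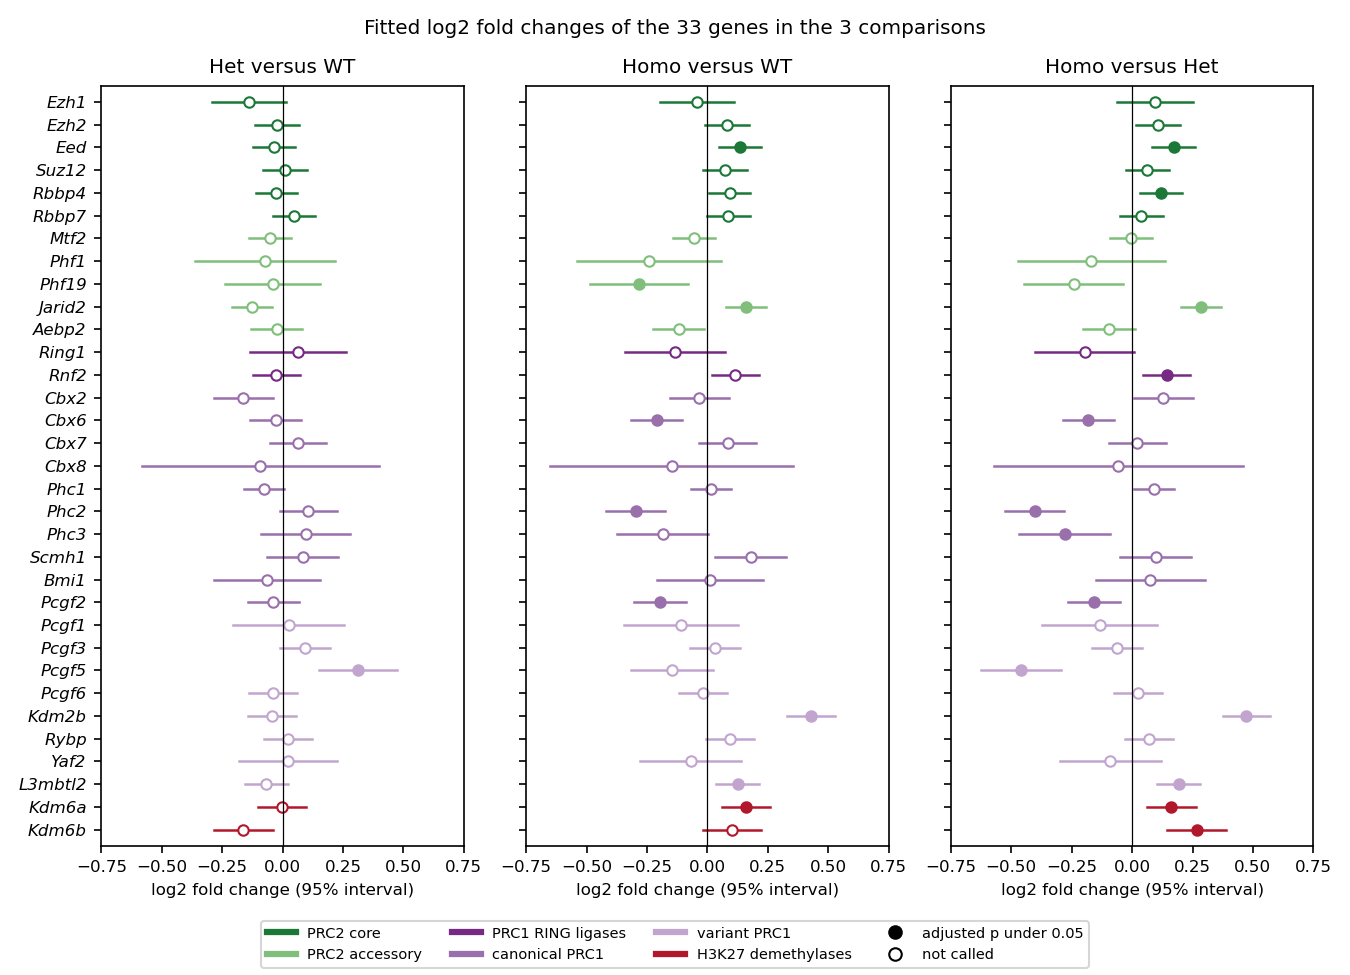
Fitted log2 fold change with its 95% interval for each of the 33 genes in the 3 comparisons, coloured by role, with filled points for an edgeR adjusted p under 0.05. One filled point (*Pcgf5*) appears in Het versus WT, 9 in Homo versus WT and 13 in Homo versus Het, all between -0.46 and 0.47.

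In the PRC2 core, *Eed* rose in homozygous cells and the catalytic subunits were not called. *Eed* (chr7:89954654-89980983 of GRCm38, minus strand) had 5106 and 4435 counts for WT, 4205 and 4516 for Het and 4417 and 4910 for Homo. This corresponds to 174 and 174 CPM for WT, 169 and 169.7 for Het and 193 and 189 for Homo, and both homozygous libraries lay above the other 4. The log2 fold change of *Eed* was 0.13 (SE 0.0418, edgeR adjusted p = 0.0256) in Homo versus WT, 9.79% higher, and 0.17 (SE 0.0419, edgeR adjusted p = 0.00482) in Homo versus Het. Against WT, Het was at -0.04 (adjusted p = 0.744).
*Rbbp4* had 17750 and 16093 counts for WT, 14815 and 16401 for Het and 15267 and 16905 for Homo. As levels these were 604 and 630.3 CPM for WT, 595 and 616 for Het and 667 and 649.7 for Homo, so that the homozygous libraries lay above all others. The difference was called between the deletions, at 0.12 (SE 0.0407, edgeR adjusted p = 0.0367), and was 0.09 (adjusted p = 0.117) in Homo versus WT.
For *Ezh2* the levels were 180.1 and 189 CPM for WT, 180.5 and 183 for Het and 198 and 194 for Homo. The homozygous libraries were again the highest, but the log2 fold change was 0.08 in Homo versus WT (95% interval -0.01 to 0.17, adjusted p = 0.197) and 0.11 in Homo versus Het (adjusted p = 0.0815). Het differed from WT by -0.02 (95% interval -0.11 to 0.07). *Suz12* and *Rbbp7* were at 0.07 and 0.09 in Homo versus WT, with intervals of -0.02 to 0.16 and -0.00 to 0.17, and *Ezh1* at -0.04 (-0.20 to 0.11).
The call of *Eed* in Homo versus WT was lost without WT replicate 1 (adjusted p = 0.1397), WT replicate 2 (0.103) or Homo replicate 1 (0.07302) and with DESeq2 (0.0528). With total counts alone *Eed* was at 0.08 in Homo versus WT (adjusted p = 0.168) and 0.10 in Homo versus Het (0.0534), and neither was called. The call of *Rbbp4* in Homo versus Het was lost without WT replicate 1 (adjusted p = 0.0554), either Het replicate (0.259 and 0.0745) or Homo replicate 1 (0.09496), and with the replicate number as a block (0.0581). With total counts alone it was lost as well, at 0.05 (adjusted p = 0.293). *Rbbp4* overlaps the gene *Sync* on the other strand, with 32 and 27 counts for WT, and the strand setting of the counting is not given in the sources used here. Among the genes not called, *Rbbp7*, *Mtf2*, *Phf1* and *Cbx7* overlap protein-coding genes on the other strand that had 618 to 2104 counts for WT.

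Among the PRC2 accessory subunits, *Jarid2* rose and *Phf19* fell in homozygous cells. *Jarid2* (chr13:44729474-44921643, plus strand), whose protein helps to bring PRC2 to chromatin, had 15959 and 13976 counts for WT, 12330 and 13413 for Het and 14244 and 15495 for Homo. Its level was 543 and 547 CPM for WT, 496 and 504 for Het and 622 and 596 for Homo, and the 3 genotypes did not overlap, with heterozygous libraries lowest and homozygous highest. The log2 fold change was 0.16 (SE 0.0399, edgeR adjusted p = 0.006797) in Homo versus WT and 0.28 (SE 0.04001, edgeR adjusted p = 2.24e-05) in Homo versus Het, the latter 21.8% higher. The value for Het against WT was -0.13 (SE 0.03999, adjusted p = 0.0818).
*Phf19*, a Polycomb-like subunit, had 410 and 405 counts for WT, 367 and 377 for Het and 301 and 296 for Homo. These are 13.96 and 15.9 CPM for WT, 14.8 and 14.2 for Het and 13.1 and 11.4 for Homo, and only the homozygous libraries lay below all others. Its log2 fold change was -0.28 (SE 0.0969, edgeR adjusted p = 0.0431) in Homo versus WT and -0.24 (adjusted p = 0.07804) in Homo versus Het.
*Mtf2*, the Polycomb-like gene with the highest level, was at -0.05, -0.06 and 0.00 in the 3 comparisons, with every 95% interval between -0.14 and 0.08. *Aebp2* was at -0.12 in Homo versus WT (adjusted p = 0.105) and *Phf1* at -0.24 (0.257), and both values depended on which homozygous library was kept. Without Homo replicate 1 they were -0.03 (adjusted p = 0.737) and -0.05 (0.873), and without Homo replicate 2 both were called, at -0.20 (0.00625) and -0.48 (0.0325). *Aebp2* was also called with total counts alone, at -0.18 (adjusted p = 0.0233).
*Jarid2* in Homo versus Het was called in all 15 alternative fits tried (other scalings, filters, tests and libraries, at the same adjusted p). In Homo versus WT its call was lost without WT replicate 1 (adjusted p = 0.0739) and kept with total counts alone at a smaller log2 fold change of 0.10, while in Het versus WT it was called without either Homo replicate (0.0301 and 0.03203). The call of *Phf19* was lost with DESeq2 (adjusted p = 0.221), with the replicate block (0.05101) and without WT replicate 2 (0.359) or Homo replicate 2 (0.289), where its log2 fold change was -0.18 in either fit.

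Of the RING ligases, *Rnf2* was higher in homozygous than in heterozygous cells. *Rnf2* (chr1:151458004-151500955, minus strand) had 3669 and 3345 counts for WT, 3066 and 3403 for Het and 3240 and 3536 for Homo. The levels were 125 and 131 CPM for WT, 123 and 128 for Het and 141 and 136 for Homo, and the homozygous libraries lay above the other 4. On the log2 scale *Rnf2* differed by 0.14 (SE 0.0463, edgeR adjusted p = 0.0289) in Homo versus Het and 0.12 (adjusted p = 0.0815) in Homo versus WT. *Ring1* was at -0.13 in Homo versus WT and -0.20 in Homo versus Het, and was not called (adjusted p = 0.383 and 0.156). The call of *Rnf2* was lost with DESeq2 (adjusted p = 0.05403) and without Het replicate 1 (0.192), Het replicate 2 (0.0528) or Homo replicate 1 (0.112). It was also lost with total counts alone, at 0.08 (adjusted p = 0.2103). *Rnf2* overlaps *Trmt1l* on the other strand, with 1076 and 908 counts for WT.

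In canonical PRC1, the genes called in homozygous cells all fell: 3 of 10 in Homo versus WT and 4 of 10 in Homo versus Het, with none higher. Of all genes tested 10.5% were lower in the former comparison and 12.9% in the latter. *Phc2* (chr4:128654702-128752881, plus strand) had the largest of these changes. Its paralogs and it carry a SAM domain through which PRC1 units join. *Phc2* had 1303 and 1125 counts for WT, 1197 and 1253 for Het and 844 and 915 for Homo, or 44.4 and 44.1 CPM for WT, 48.1 and 47.1 for Het and 36.9 and 35.2 for Homo. The 3 genotypes did not overlap, with heterozygous libraries highest and homozygous lowest. Its log2 fold change was -0.30 (SE 0.0581, edgeR adjusted p = 8.25e-04) in Homo versus WT, a level 18.6% lower, and -0.40 (SE 0.05798, edgeR adjusted p = 2.93e-05) in Homo versus Het. Het against WT was at 0.11 (95% interval -0.01 to 0.22, adjusted p = 0.367). Both calls were made in all 15 alternative fits.
*Phc3* had 716 and 539 counts for WT, 597 and 657 for Het and 414 and 570 for Homo, or 24.4 and 21.1 CPM for WT, 23.997 and 24.7 for Het and 18.1 and 21.9 for Homo. The homozygous libraries lay below both heterozygous libraries but overlapped with wild-type. Its log2 fold change was -0.28 (SE 0.09003, edgeR adjusted p = 0.0279) in Homo versus Het and -0.18 (adjusted p = 0.163) in Homo versus WT. Here too both values moved with the homozygous library left out. Without Homo replicate 1 they were -0.14 and -0.05, and without Homo replicate 2 they were -0.43 and -0.34 (adjusted p = 0.00109 and 0.0128). *Phc1*, which holds most of the PHC level, was at 0.02 in Homo versus WT, with a 95% interval of -0.07 to 0.10.
*Cbx6* (chr15:79823896-79834688, minus strand) encodes one of the chromodomain proteins. It had 3252 and 2695 counts for WT, 2676 and 2781 for Het and 2044 and 2540 for Homo, or 111 and 106 CPM for WT, 108 and 105 for Het and 89.3 and 97.6 for Homo, with both homozygous libraries below the other 4. *Cbx6* had log2 fold changes of -0.21 (SE 0.0509, edgeR adjusted p = 0.00516) in Homo versus WT and -0.18 (SE 0.0511, edgeR adjusted p = 0.012997) in Homo versus Het. It overlaps the protein-coding gene *Npcd* on the same strand, with 0 and 0 counts for WT. How reads shared by both genes were counted is not given in the sources used here.
*Cbx7*, the main CBX gene, was at 317 and 300.4 CPM for WT, 333 and 313 for Het and 303 and 352 for Homo. The homozygous libraries were far apart and overlapped with both other genotypes. Its log2 fold change in Homo versus WT was 0.08 (adjusted p = 0.326), and turned from 0.196 (adjusted p = 0.00429) without Homo replicate 1 to -0.027 (0.764) without Homo replicate 2. *Cbx2* was at -0.16 in Het versus WT (adjusted p = 0.132) and at -0.03 in Homo versus WT. *Cbx8* had too few counts for a narrow interval, with -0.65 to 0.35 in Homo versus WT.
*Pcgf2* (also called Mel18; chr11:97688823-97700497, minus strand) had 2751 and 2260 counts for WT, 2273 and 2292 for Het and 1780 and 2117 for Homo, or 93.6 and 88.5 CPM for WT, 91.4 and 86.1 for Het and 77.7 and 81.4 for Homo. Again the homozygous libraries were the lowest, with log2 fold changes of -0.20 (SE 0.0511, edgeR adjusted p = 0.00902) against wild-type and -0.16 (SE 0.0515, edgeR adjusted p = 0.0307) against heterozygous cells. Its paralog *Bmi1* was at 0.01 (95% interval -0.21 to 0.23) in Homo versus WT, and *Scmh1* at 0.18 (adjusted p = 0.0784).
The calls of *Cbx6* and *Pcgf2* in Homo versus WT were lost without WT replicate 1 (adjusted p = 0.0917 and 0.149) or Homo replicate 1 (0.0839 and 0.0668). In Homo versus Het the calls of *Cbx6*, *Pcgf2* and *Phc3* were lost with DESeq2 (adjusted p = 0.0641, 0.1503 and 0.127), without Het replicate 1 (0.0946, 0.2404 and 0.0673) and without Homo replicate 1 (0.177, 0.1799 and 0.307). Without Homo replicate 1 *Cbx6* was at -0.14 in Homo versus WT and -0.11 in Homo versus Het. That of *Phc3* was also lost without Het replicate 2 (0.12002) and that of *Pcgf2* without WT replicate 2 (0.0564).

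Variant PRC1 held the genes with the largest changes. *Kdm2b* (chr5:122870665-122989823, minus strand) rose in homozygous cells. It had 2645 and 2173 counts for WT, 2132 and 2241 for Het and 2708 and 3060 for Homo. The levels were 90.04 and 85.1 CPM for WT, 85.7 and 84.2 for Het and 118 and 118 for Homo, and both homozygous libraries lay far above the other 4, which overlapped with each other. *Kdm2b* had a log2 fold change of 0.43 (SE 0.0467, edgeR adjusted p = 9.61e-07) in Homo versus WT, 34.6% higher, and 0.47 (SE 0.04704, edgeR adjusted p = 2.48e-07) in Homo versus Het. Het stood at -0.04 against WT, with a 95% interval of -0.14 to 0.05. Both calls were made in all 15 alternative fits. *Kdm2b* overlaps *Rnf34* and an antisense RNA on the other strand, with 1568 and 1387, and with 288 and 204 counts for WT. *Pcgf1*, whose protein binds KDM2B in the same complex, was at -0.11 (95% interval -0.34 to 0.12) in Homo versus WT.
*Pcgf5* (chr19:36348309-36460970, plus strand) was the only gene of the 33 called in heterozygous cells. It had 508 and 441 counts for WT, 514 and 592 for Het and 351 and 413 for Homo. At 17.3 and 17.3 CPM for WT, 20.7 and 22.2 for Het and 15.3 and 15.9 for Homo, the 3 genotypes did not overlap, with heterozygous libraries highest and homozygous lowest. *Pcgf5* had a log2 fold change of 0.31 (SE 0.0766, edgeR adjusted p = 0.0188) in Het versus WT, 24.2% higher, and -0.46 (SE 0.0791, edgeR adjusted p = 2.16e-04) in Homo versus Het. In Homo versus WT it was -0.15 (95% interval -0.32 to 0.02, adjusted p = 0.221). The difference between the deletions was called in all 15 alternative fits. The call in Het versus WT was lost with DESeq2 (adjusted p = 0.205) and without WT replicate 1 (0.148), WT replicate 2 (0.151) or Het replicate 2 (0.244). *Pcgf3*, the paralog with the higher level, was at 0.09 in Het versus WT (95% interval -0.01 to 0.20).
*L3mbtl2* (chr15:81663889-81688315, plus strand), an MBT-domain protein of the PCGF6 complex, had 5091 and 4492 counts for WT, 4153 and 4425 for Het and 4447 and 4856 for Homo. The levels were 173 and 176 CPM for WT, 167 and 166 for Het and 194 and 187 for Homo, with the genotypes apart and homozygous libraries highest. Its log2 fold change was 0.12 (SE 0.0426, edgeR adjusted p = 0.0426) in Homo versus WT and 0.19 (SE 0.0428, edgeR adjusted p = 0.00232) in Homo versus Het. Its partner *Pcgf6* was at -0.02 (95% interval -0.12 to 0.08) in Homo versus WT. *Rybp* and *Yaf2* were at 0.09 and -0.07 in that comparison and were not called (adjusted p = 0.189 and 0.684). The call of *L3mbtl2* in Homo versus WT was lost in 10 of the 15 alternative fits, among them the replicate block (adjusted p = 0.06098), DESeq2 (0.09205) and the fits without WT replicate 1 (0.238), WT replicate 2 (0.106), either Het replicate (0.0571 and 0.0563) or Homo replicate 1 (0.158). With total counts alone it was at 0.07 (adjusted p = 0.242). In Homo versus Het it was called in all 15, with a log2 fold change of 0.13 under total counts alone. *L3mbtl2* overlaps *Chadl* on the other strand, with 71 and 53 counts for WT.

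Both H3K27 demethylases were higher in homozygous than in heterozygous cells. *Kdm6a* (chrX:18162575-18279936, plus strand) had 2643 and 2252 counts for WT, 2150 and 2434 for Het and 2311 and 2557 for Homo, or 89.97 and 88.2 CPM for WT, 86.4 and 91.5 for Het and 101 and 98.3 for Homo. The homozygous libraries lay above the other 4. The log2 fold change was 0.16 (SE 0.0478, edgeR adjusted p = 0.0205) in Homo versus WT and 0.16 (SE 0.04797, edgeR adjusted p = 0.01699) in Homo versus Het. Against WT, Het stood at 0.00, with a 95% interval of -0.10 to 0.10.
*Kdm6b* (chr11:69398508-69413675, minus strand) had 1869 and 1559 counts for WT, 1456 and 1408 for Het and 1484 and 1798 for Homo. Its level was 63.6 and 61.1 CPM for WT, 58.5 and 52.9 for Het and 64.8 and 69.1 for Homo, and the 3 genotypes did not overlap, with heterozygous libraries lowest. The difference was called in Homo versus Het, at 0.27 (SE 0.0584, edgeR adjusted p = 0.00202), and the log2 fold change was -0.16 (adjusted p = 0.1302) in Het versus WT and 0.10 (adjusted p = 0.227) in Homo versus WT.
The Y-linked paralog *Uty*, not one of the 33, had 357 and 314 counts for WT, 18 and 17 for Het and 7 and 8 for Homo. Its share of the KDM6 level was 5.99 ± 0.165% in wild-type, 0.372 ± 0.0297% in heterozygous and 0.145 ± 8.47e-04% in homozygous libraries (SD, n = 2 each), and that of *Kdm6a* was 50.99 ± 0.261%, 56.8 ± 2.74% and 55.2 ± 1.58%.
The call of *Kdm6a* in Homo versus WT was lost with DESeq2 (adjusted p = 0.0694) and without WT replicate 1 (0.0833), WT replicate 2 (0.116) or Homo replicate 1 (0.0612). In Homo versus Het it was lost without Het replicate 1 (adjusted p = 0.172) or Homo replicate 1 (0.0553), and that of *Kdm6b* without Het replicate 2 (0.0548). With total counts alone both calls of *Kdm6a* were lost, at 0.10 in Homo versus WT (adjusted p = 0.127) and 0.10 in Homo versus Het (0.141). *Kdm6b* overlaps the antisense RNA *Kdm6bos*, with 22 and 15 counts for WT.

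**Figure D4:**
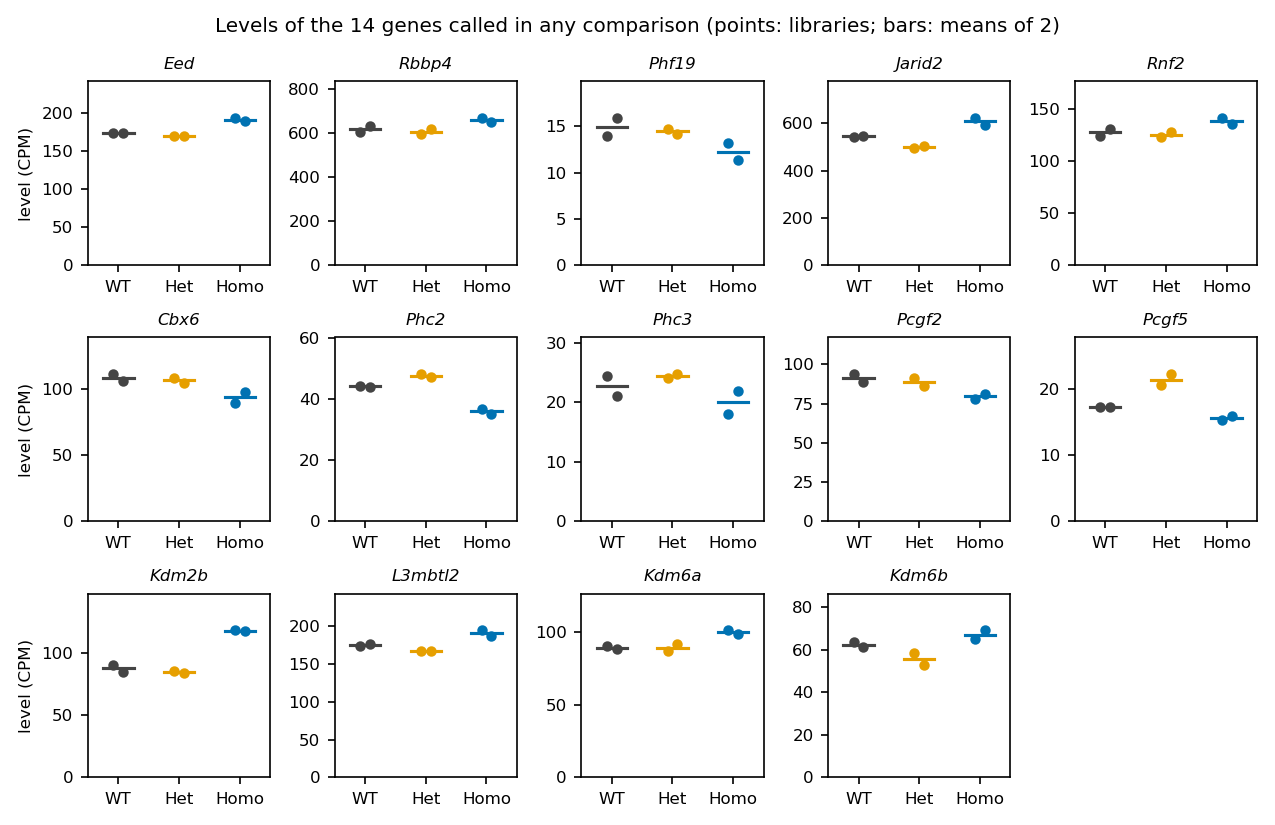
Level (CPM, axis from 0) of the 14 genes called in any comparison, with 1 point per library and a bar for the mean of the 2 libraries of a genotype. *Kdm2b* rises from a wild-type mean of 87.6 to 118 CPM in homozygous libraries, *Phc2* falls from 44.2 to 36.0 CPM, and *Pcgf5* is highest in heterozygous libraries at 21.5 CPM.

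Genes around the Polycomb system were counted as lists. Of 25 other Polycomb-associated genes 24 were tested, and 1 rose and 2 fell in Het versus WT, 3 rose and 2 fell in Homo versus WT, and 6 were higher and 5 lower in Homo versus Het. These are 12.5%, 20.8% and 45.8% of those tested, beside 5.14%, 21.4% and 25.8% of all genes. Their median SE was 0.049 in each comparison, against 0.092 to 0.094 over all genes. In heterozygous cells *Sfmbt2*, an MBT-domain gene, had a log2 fold change of 0.36 (SE 0.04799, edgeR adjusted p = 7.85e-05) and *Bcorl1*, a subunit of the PCGF1 complex, one of -0.51 (SE 0.127, edgeR adjusted p = 0.02099). In Homo versus WT the genes that rose included *Mga* with 0.39 (SE 0.0572, edgeR adjusted p = 3.86e-05) and *Tfdp1* with 0.58 (SE 0.0399, edgeR adjusted p = 2.29e-09). *Tfdp1* lies on chromosome 8. *Fbrs*, a component of PCGF3 and PCGF5 complexes, fell, with -0.43 (SE 0.0831, edgeR adjusted p = 8.03e-04), as did *Uty* above.
Of 9 genes of the H2A deubiquitinases and their partners, none was called in Het versus WT, beside 5.14% of all genes. At an unadjusted p below 0.05 in edgeR were 0 of the 9, and 2757 of all 16951 genes. In Homo versus WT 1 rose (*Asxl3*, 0.38 (SE 0.121, edgeR adjusted p = 0.0293)), or 11.1% beside 21.4% of all genes. In Homo versus Het 1 was higher and none lower, or 11.1% beside 25.8%. Trithorax and H3K27 acetylation genes counter Polycomb silencing. Of 18, 17 were tested, and 8 rose and none fell in Homo versus WT, or 47.1% beside 21.4% of all genes, with a median log2 fold change of 0.14. They included the H3K4 methyltransferases *Kmt2c* with 0.31 (SE 0.0767, edgeR adjusted p = 0.00623), *Kmt2d* with 0.27 (SE 0.0602, edgeR adjusted p = 0.00228) and *Kmt2a* with 0.21 (SE 0.0692, edgeR adjusted p = 0.0371), and *Ash2l*, on chromosome 8, with 0.58 (SE 0.04305, edgeR adjusted p = 6.09e-09). In Het versus WT 1 of the 17 fell (*Ash2l*, -0.25) and none rose, or 5.88% beside 5.14% of all genes. Between the deletions 8 were higher in Homo and none lower, or 47.1% beside 25.8%. The median SE of the 17 was 0.051 in each comparison, against 0.092 to 0.094 over all genes, which were thus less precisely measured. How this list moved with total counts alone was not examined. In Homo versus WT the median over all genes was then -0.063.
Polycomb target genes, 41 in the list and mostly developmental regulators, were at low levels. Their summed level lay between 123 and 129.8 CPM in the 6 libraries, and 28 passed the count filter. None was called in Het versus WT, beside 5.14% of all genes. At an unadjusted p below 0.05 in edgeR were 8 of the 28, and 2757 of all 16951 genes. Their median SE was 0.22 in that comparison, against 0.09 over all genes, so changes of moderate size could be missed. In Homo versus WT 3 rose and 3 fell, or 21.4% of those tested and 21.4% of all genes, with a median log2 fold change of -0.04. *Sox1*, on chromosome 8, rose by 1.39, and *Gata3* and *Pax6* by 0.92 each. *Lmx1b* was at -0.97, *Cdkn2b* at -0.72 and *T* at -0.71. The median SE of the list was 0.22 in this comparison as well. Against heterozygous cells 4 were higher and 5 lower, or 32.1% beside 25.8% of all genes, with a median of -0.27.
The 10 pluripotency markers had 6 lower in Het versus WT, 1 higher and 1 lower in Homo versus WT, and 8 higher in Homo versus Het, with medians of -0.19, 0.01 and 0.17. The shares called were 60%, 20% and 80%, beside 5.14%, 21.4% and 25.8% of all genes. The median SE of these markers was 0.045 in each comparison, about which all genes were less precisely measured, at 0.092 to 0.094.

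**Figure D5:**
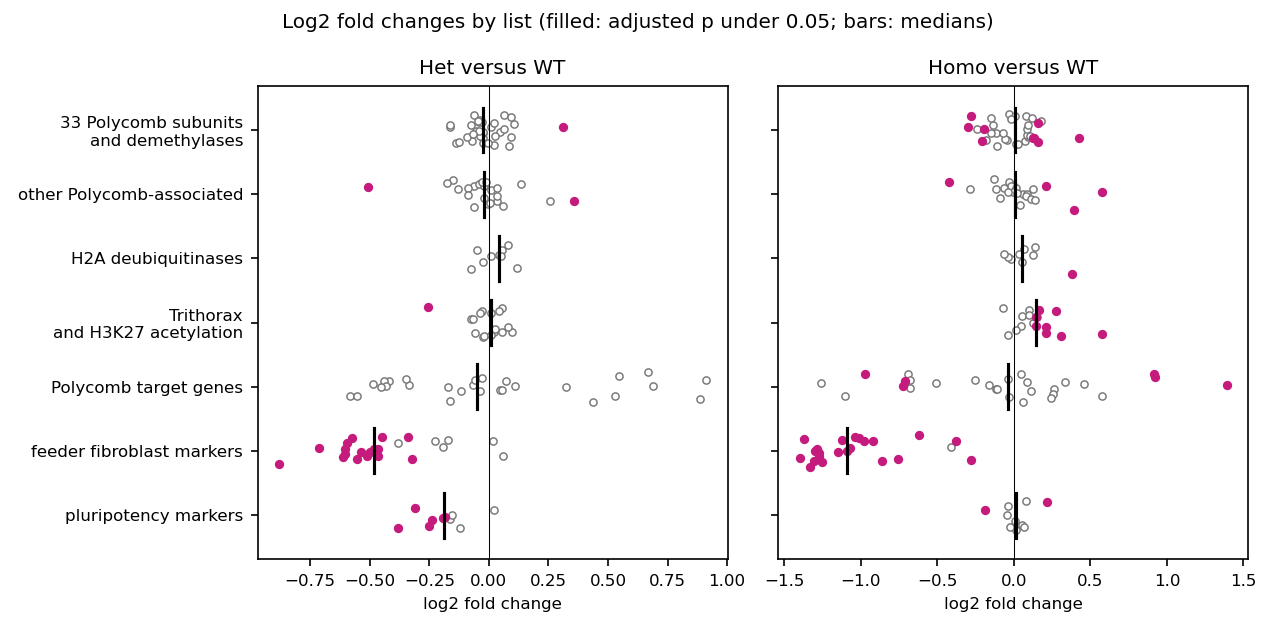
Fitted log2 fold change of each tested gene by list in Het versus WT and in Homo versus WT, with filled points for an edgeR adjusted p under 0.05 and bars for list medians. The 33 genes lie between -0.30 and 0.43 while feeder fibroblast markers reach -1.40, and *Uty* (-4.16 and -5.29) lies outside the range drawn and has no point.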

How the data were processed

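RNA was sequenced from WT, Het and Homo mESCs, with genotype and replicate number taken from the sample labels (2 libraries per genotype). The methods state biological triplicates, and the 6 labeled libraries were used. The deposited values are whole-number counts per gene that carry no normalization by the authors. The libraries were stranded polyadenylated RNA libraries, and the submitters' processing notes name Trimmomatic 0.39, STAR 2.6.1d, SAMtools 1.9, featureCounts 1.6.4 and DESeq2 1.22.2 with mm10 (GRCm38). The annotation release and the strand setting of the counting are not given in the sources used here.

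Libraries of 1 genotype were further apart than sampling noise allows (chi-square per degree of freedom 2.34 for WT, 2.45 for Het and 3.65 for Homo). This excess does not show that they came from separate cultures. Each library entered the fit as its own sample. Genes that reached 10 counts in 2 or more libraries were fitted in R 4.3.3 with edgeR 4.0.16 (limma 3.58.1), with TMM factors and all 6 libraries in a single quasi-likelihood model, and p-values were adjusted by Benjamini-Hochberg over 16951 genes. SE is the log2 fold change divided by the square root of the F statistic. Exon lengths and positions came from the GRCm38 annotation, which held 55144 of the 55385 genes and all 33 examined. Promoter windows came from RefSeq, and 6 of the 33 genes had none within 5000 bases.

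All 33 genes are named with a level. Full statistics are given for those called in any comparison, and of the other lists at most 4 called genes with the largest absolute log2 fold change per comparison. The Polycomb target genes are an exception, with 6 named in Homo versus WT, each with its log2 fold change only. The genes, lists and tests were chosen with earlier results of these data known. A gene of the comparison lists is not reported here. As alternatives, DESeq2 1.42.0 replaced edgeR or only its scaling, scaling used plain totals, the count filter was dropped or changed (3 ways), the fit was limited to the genotypes compared, blocked by replicate number or made robust, the fold threshold was added, and every library was left out once. Python 3.11.15 was used for tables and plots, with pandas 2.3.3, numpy 2.4.6, scipy 1.17.1 and matplotlib 3.10.9.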

Additional observations from a re-analysis of the deposited data

Results flagged for a closer look

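For 13 of the 33 genes homozygous and heterozygous libraries differed, in edgeR's quasi-likelihood test of Homo versus Het at a Benjamini-Hochberg adjusted p below 0.05. That is 39.4%, beside 25.8% of all genes. Effects of the deletions and differences between clones cannot be told apart here. Each value below is the log2 fold change of Homo versus Het, followed in parentheses by those of Het versus WT and Homo versus WT. Homozygous cells were higher with 0.47 for *Kdm2b* (-0.04 and 0.43), 0.28 for *Jarid2* (-0.13 and 0.16), 0.27 for *Kdm6b* (-0.16 and 0.10), 0.19 for *L3mbtl2* (-0.07 and 0.12), 0.17 for *Eed* (-0.04 and 0.13), 0.16 for *Kdm6a* (0.00 and 0.16), 0.14 for *Rnf2* (-0.03 and 0.12) and 0.12 for *Rbbp4* (-0.03 and 0.09). They were lower with -0.46 for *Pcgf5* (0.31 and -0.15), -0.40 for *Phc2* (0.11 and -0.30), -0.28 for *Phc3* (0.09 and -0.18), -0.18 for *Cbx6* (-0.03 and -0.21) and -0.16 for *Pcgf2* (-0.04 and -0.20). For *Eed*, *Jarid2*, *L3mbtl2*, *Kdm6b*, *Phc2* and *Pcgf5* the libraries of the 3 genotypes did not overlap, and WT lay between both deletions. These were taken from the genes called in Homo versus Het. The share of all genes with this order was not counted, and in Homo versus Het alone 61.4% of all genes did not overlap. Feeder fibroblast markers were lower in Homo than in Het libraries as well (median log2 fold change -0.60), and 8 of 10 pluripotency markers were higher and none lower (median 0.17), and the part of either in these 13 differences was not tested. With 2 libraries per genotype, no library could be examined for standing apart from its group.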

How the results depend on the processing

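Of 23 calls made on the 33 genes over the 3 comparisons, 7 were made in all 15 alternative fits, namely *Kdm2b* and *Phc2* in both comparisons with Homo and *Jarid2*, *L3mbtl2* and *Pcgf5* in Homo versus Het. The other 16 were lost in at least 1, and 9 differences were called only in an alternative. Under the fold threshold the count of called genes was 0 in each comparison. In Het versus WT the count was 1, and was 0 with DESeq2, 2 without a filter, 2 with only the libraries compared and 0 to 2 with 1 library left out (0 without either WT replicate or Het replicate 2, and 2, *Jarid2* included, without either Homo replicate). In Homo versus WT it was 9, and was 5 with DESeq2 and 3 to 13 with 1 library left out (3 without WT replicate 1, 5 without WT replicate 2 or Homo replicate 1, and 13 without Homo replicate 2, where *Rbbp7*, *Phf1*, *Aebp2*, *Phc3* and *Scmh1* were called). In Homo versus Het it was 13, and 7 to 14 with 1 library left out (7 without Het replicate 1 and 8 without Homo replicate 1). With total counts only, the median log2 fold change of the 33 genes was -0.046 in Homo versus WT (0.010 with TMM) and -0.029 in Homo versus Het (0.038). *Cbx7* (0.08 in Homo versus WT) was at 0.196 without Homo replicate 1 (adjusted p = 0.00429) and changed sign to -0.027 without Homo replicate 2 (adjusted p = 0.764). The causes were not tested.

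With the replicate number as a block, 1, 7 and 12 genes were called, and those lost were *Phf19* and *L3mbtl2* in Homo versus WT and *Rbbp4* in Homo versus Het. Deviations of same-numbered libraries had correlations across genes of 0.0262 for WT with Het, -0.125 for WT with Homo and 0.0113 for Het with Homo. With 1 such deviation per genotype, these values cannot show whether same-numbered libraries shared a culture or a preparation. Where 1 library of a genotype was left out, the lone library was assumed to vary like those of the other genotypes. Depth limits *Cbx8* most, with 34 counts in its lowest library.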
